A study of Homo sapiens with 10 samples.

Results

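DNA repair genes of the RAD, XRCC, MSH, MLH, FANC and ERCC families were followed in human HCT116 cells with a mutated origin recognition complex. The members were all genes of the probe annotation whose symbol begins with FANC, RAD, XRCC, MSH, MLH, ERCC or BRCA in the numbered or lettered form of these families. Pseudogenes and genes on chromosomes 5 and 16 were left out. This gave 26 of 14884 named genes, of which 15 carry a RAD symbol, 5 an XRCC symbol, 3 an MSH symbol, and 1 each an MLH, FANC or ERCC symbol, with 0 from the BRCA family. The only FANC symbol is FANCD2OS and the only ERCC symbol is ERCC6L2-AS1. Genes with FANC or ERCC symbols that encode repair proteins were therefore not analysed here. The label of the set is therefore wider than its content, which is mainly recombination, end joining and mismatch repair. A further 5 genes with matching symbols on chromosome 5 were left out by the rule, and 0 lay on chromosome 16.

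HCT116 is an established human colorectal carcinoma line that is known to be deficient in mismatch repair. The data cover 5 untreated HCT116 lines with 2 Affymetrix arrays each, titled biological replicates 1 and 2, and all lines share the HCT116 background. ORC1B14 and ORC1BP32 are labelled as ORC1 mutants, ORC2B2 and ORC2BP8 as ORC2 mutants, and WT is the wild-type line. The labels name neither the kind of mutation nor whether a line is a single clone. They do not say that replicates came from separate cultures, and the p-values below therefore reflect the spread between arrays alone, which may be technical. ORC1 and ORC2, subunits of the complex that marks replication origins, were not among the named genes, so they could not serve as a check of the labels here.

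The families repair different kinds of DNA damage. Several RAD proteins carry out homologous recombination, in which a broken end copies an intact sister chromatid, the Ku proteins XRCC5 and XRCC6 start non-homologous end joining, and MSH and MLH proteins correct mispaired bases after replication. Many recombination genes are expressed mainly in dividing cells, where they also help stalled replication forks.

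Values are deposited log2 expression values, 1 per probe set and array, and every difference below is a log2 difference, on which 1 unit is a doubling. Array medians lay between 3.87 and 3.96, at 3.94 to 3.96 on replicate 1 arrays and 3.87 to 3.89 on replicate 2 arrays. All 8 named colon epithelial markers, KRT18, EPCAM, KRT19, KRT8, CDX2, CDX1, KRT20 and VIL1, lay at or above the array median on every mutant and WT array. Of the markers of other cells, 0 of 2 blood markers did so on any array, as did 1 of 3 fibroblast markers (THY1) and 2 of 3 hepatocyte markers (TTR and APOA1) on all arrays, and 0 to 1 of 3 endothelial markers on mutant arrays against 0 on WT arrays. A gene was tested when its probe set reached the array median on at least 2 arrays, which 10797 genes and 21 of the 26 members did. Of these 21, 20 reached it on all 10 arrays and ERCC6L2-AS1 on 9, so no tested member passed through 1 group alone. The other 5 members, RAD9B, RAD21L1, RAD51AP2, FANCD2OS and RAD21-AS1, were below the median on all 10 arrays and are given no difference. Levels of different probe sets are not compared with each other.

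In a limma fit of the 5 line means, without a term for the replicate number, no member passed the test in any comparison. Each mutant line, the mean of the ORC1 lines, the mean of the ORC2 lines and the mean of all 4 mutant lines were set against WT, and the ORC1 lines against the ORC2 lines. With limma, 0 of 21 members had an adjusted p under 0.05 in each of these 8 comparisons. Among all genes tested the share with such a p was 0.583% for ORC1B14, 0.0185% for ORC1BP32, 0.333% for ORC2B2 and 0.935% for ORC2BP8. It was 0.269% for the mean of the ORC1 lines, 1.07% for the mean of the ORC2 lines, 1.02% for the mean of all 4 lines and 0.0463% between ORC1 and ORC2 lines. At shares this low a set of 21 genes would hold few calls or none, so 0 calls does not set the members apart. The count of 0 depends on leaving out the replicate number. With it as a block, limma called 4 members in ORC2BP8 (3.72% of all genes) and 3 in the mean of all 4 lines (6.57%). It called 0 in ORC1BP32 (0.528%) and 0 between ORC1 and ORC2 lines (0.537%). The labels do not say what the number marks. At an unadjusted limma p under 0.05, 6 members differed from WT in the mean of all 4 lines, 5 of them higher and 1 lower, which is 28.6% of the 21, against 17.3% of all genes (8.76% higher and 8.51% lower). The 6 were RAD54L, XRCC3, RAD51C, RAD9A and XRCC6 above WT and MSH5-SAPCD1 below it. These counts are small, and none of the 6 passed the adjusted test in the fit without the block. The count of members fell without WT replicate 1 and rose without ORC1B14 replicate 1, while the count over all genes fell without either. In single lines the members with an unadjusted p under 0.05 numbered 5 for ORC1B14 (17% of all genes), 3 for ORC1BP32 (10.1%), 4 for ORC2B2 (11.7%) and 6 for ORC2BP8 (14.6%). In the means they numbered 4 for the ORC1 lines (16.3% of all genes) and 7 for the ORC2 lines (15.2%). Single arrays moved these counts too, and the counts over all genes moved as well. In each of these comparisons the count of members was lowest without a WT array or without an array of the line itself.

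The promoters of the 4 members with the smallest p in the mean of all 4 lines are shown because they hold the sequence next to the starts of the genes that stood farthest from WT against their error. They are RefSeq sequences of GRCh38.p14, 250 bases before to 50 after the first start listed for the gene. Capitals mark matches on either strand to the letters searched. These were TTTGGCGC, TTTCGCGC, TTTCCCGC and TTTGCCGC, a set of forms bound by E2F factors, TTTGAA and TTCGAA, forms of the cell cycle genes homology region (CHR), and CCAAT, the letters of the box bound by NF-Y.
RAD54L (chr1:46247438-46247737, plus strand): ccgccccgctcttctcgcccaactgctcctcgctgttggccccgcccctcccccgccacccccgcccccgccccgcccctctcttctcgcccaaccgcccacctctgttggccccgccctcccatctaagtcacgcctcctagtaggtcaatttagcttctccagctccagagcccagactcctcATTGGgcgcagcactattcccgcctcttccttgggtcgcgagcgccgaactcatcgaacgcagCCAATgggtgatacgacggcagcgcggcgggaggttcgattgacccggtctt
XRCC3 (chr14:103715402-103715701, minus strand): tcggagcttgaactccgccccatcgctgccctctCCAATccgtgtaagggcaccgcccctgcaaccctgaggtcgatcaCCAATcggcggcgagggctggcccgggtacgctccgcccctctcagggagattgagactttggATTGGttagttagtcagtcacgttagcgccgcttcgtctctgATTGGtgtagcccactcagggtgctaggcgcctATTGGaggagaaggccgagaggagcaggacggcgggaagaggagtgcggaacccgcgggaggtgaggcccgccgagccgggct
RAD51C (chr17:58692323-58692622, plus strand): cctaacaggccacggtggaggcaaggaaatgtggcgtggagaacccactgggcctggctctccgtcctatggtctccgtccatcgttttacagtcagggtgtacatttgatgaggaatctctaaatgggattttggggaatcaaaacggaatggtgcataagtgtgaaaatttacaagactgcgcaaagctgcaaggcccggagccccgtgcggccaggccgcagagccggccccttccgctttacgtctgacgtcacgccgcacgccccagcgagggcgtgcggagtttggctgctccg
MSH5-SAPCD1 (chr6:31739698-31739997, plus strand): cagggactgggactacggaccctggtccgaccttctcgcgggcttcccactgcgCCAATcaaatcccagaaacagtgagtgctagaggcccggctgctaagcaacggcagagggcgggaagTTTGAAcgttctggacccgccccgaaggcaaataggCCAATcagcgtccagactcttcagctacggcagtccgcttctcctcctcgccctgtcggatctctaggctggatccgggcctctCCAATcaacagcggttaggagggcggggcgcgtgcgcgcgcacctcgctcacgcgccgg
No E2F or CHR letters lay in the windows of RAD54L, XRCC3 and RAD51C. XRCC3 held 5 CCAAT matches, MSH5-SAPCD1 held 3 with 1 CHR match, RAD54L held 2 and RAD51C held 0. Of the 21 tested members, 18 had a promoter in the table. E2F letters were found in 3 of these 18 (MSH6, XRCC2 and XRCC6), or 16.7%, against 3.33% of 27305 genes with a promoter. CCAAT was found in 11 of 18, or 61.1%, against 35.7% of those genes, and CHR letters in 3 of 18, or 16.7%, against 16.6%. The overlapping genes MSH5 and MSH5-SAPCD1 were counted separately in both shares, and whether their windows coincide was not checked. The 27305 genes were not limited to genes tested here, as the members were, so the 2 sets are unlike. A match is a stretch of letters and not a measured binding site, and a window without one says nothing about a factor.

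Among the recombination genes, RAD54L stood farthest from WT against its error. RAD54L encodes the translocase RAD54, which acts during strand exchange in homologous recombination. On its probe set (16664243, chromosome 1) RAD54L stood at 7.17 and 7.52 in ORC1B14, 6.96 and 7.33 in ORC1BP32, 7.40 and 7.27 in ORC2B2 and 7.23 and 7.48 in ORC2BP8, against 6.41 and 6.71 in WT, with replicate 1 first in each pair. All 8 mutant arrays lay above both WT arrays, and the mutant lines overlapped each other. ORC1B14 differed from WT by 0.78, ORC1BP32 by 0.59, ORC2B2 by 0.77 and ORC2BP8 by 0.79 (SE 0.22 for each, limma adjusted p = 0.126, 0.409, 0.178 and 0.130). Over all 4 lines it was 0.73, a ratio of 1.66 (SE 0.17, 95% confidence interval 0.35 to 1.12, limma adjusted p = 0.0643), short of the threshold. Leaving out each array in turn gave 0.58 to 0.88, with adjusted p between 0.0572 and 0.438, and the largest p came without WT replicate 1. After quantile normalization the limma adjusted p was 0.0402, and with the replicate number as a block it was 0.0170. Whether RAD54L passes the threshold therefore depends on the processing.

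**Figure D1:**
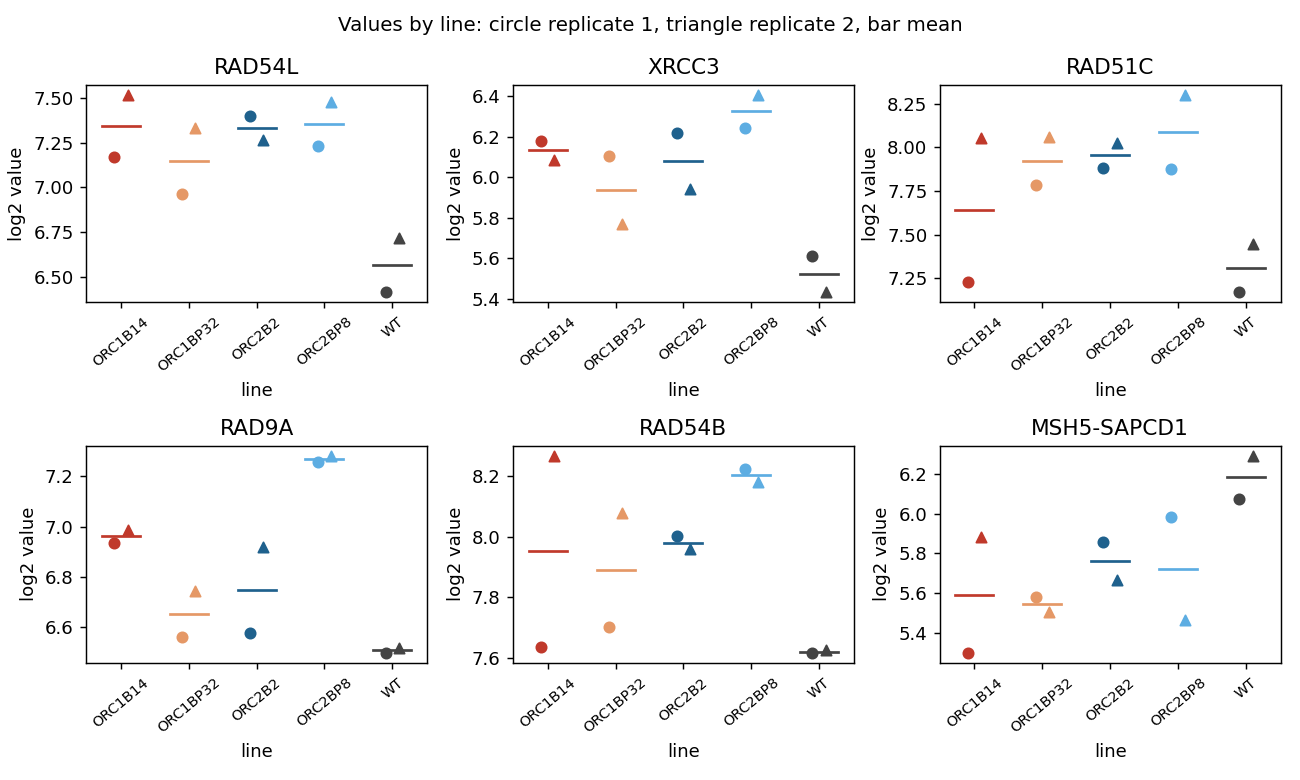
Log2 values by line (mutant lines left, WT right) for 6 genes with all or nearly all mutant arrays on 1 side of WT. Circles are replicate 1, triangles replicate 2 and bars the mean of the 2 arrays, and the vertical axes differ between panels and do not start at 0. RAD54L stood at 6.96 to 7.52 on the mutant arrays, above both WT arrays at 6.41 and 6.71, and MSH5-SAPCD1 at 5.30 to 5.98, below both at 6.08 and 6.29.

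XRCC3 and RAD51C, recombination proteins that form a complex with each other, followed. XRCC3 stood at 6.18 and 6.09 in ORC1B14, 6.10 and 5.77 in ORC1BP32, 6.22 and 5.94 in ORC2B2 and 6.24 and 6.41 in ORC2BP8, against 5.61 and 5.43 in WT. Here too all 8 mutant arrays lay above both WT arrays, and the line means differed from WT by 0.61 (ORC1B14), 0.42 (ORC1BP32), 0.56 (ORC2B2) and 0.80 (ORC2BP8). Over the 4 lines the difference of XRCC3 was 0.60 (SE 0.16, 95% interval 0.24 to 0.95, limma adjusted p = 0.0925). RAD51C stood at 7.23 and 8.06 in ORC1B14, 7.78 and 8.06 in ORC1BP32, 7.88 and 8.03 in ORC2B2 and 7.88 and 8.30 in ORC2BP8, against 7.17 and 7.44 in WT. The first ORC1B14 array lay between the WT arrays and the other 7 mutant arrays lay above both. The differences of RAD51C were 0.34, 0.61, 0.65 and 0.78 in ORC1B14, ORC1BP32, ORC2B2 and ORC2BP8, and 0.60 over the 4 lines (SE 0.22, 95% interval 0.12 to 1.07, limma adjusted p = 0.191). Without ORC1B14 replicate 2 the difference of RAD51C in ORC1B14 was -0.08, and without ORC1B14 replicate 1 it was 0.75.

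XRCC2 and RAD51B, related recombination genes, had mutant arrays on both sides of a WT array. XRCC2, which joins RAD51B and RAD51C in a larger complex, stood at 7.20 and 8.10 in ORC1B14, 7.75 and 8.19 in ORC1BP32, 8.51 and 8.02 in ORC2B2 and 8.20 and 8.40 in ORC2BP8, against 7.61 and 7.79 in WT. The ORC1B14 arrays of XRCC2 lay on either side of WT, while both arrays of each ORC2 line lay above it, and the difference over 4 lines was 0.34 (SE 0.23, limma adjusted p = 0.497). RAD51B ranged over 4.57 to 4.93 on all 10 arrays, a range of 0.36, and differed from WT by -0.03 over the 4 lines (95% interval -0.34 to 0.28).

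RAD54B, a second translocase related to RAD54L, stood at 7.64 and 8.27 in ORC1B14, 7.70 and 8.08 in ORC1BP32, 8.002 and 7.96 in ORC2B2 and 8.22 and 8.18 in ORC2BP8, against 7.62 and 7.63 in WT. All 8 mutant arrays lay above both WT arrays, though the lowest, ORC1B14 replicate 1 at 7.64, cleared the higher WT array at 7.63 by little. Its difference was 0.38 over the 4 lines (SE 0.18, limma adjusted p = 0.305). RAD51AP1, which promotes strand pairing, stood at 6.24 and 6.95 in ORC1B14, 6.52 and 7.01 in ORC1BP32, 6.74 and 6.56 in ORC2B2 and 6.72 and 7.01 in ORC2BP8, against 6.02 and 6.55 in WT. In RAD51AP1 the WT arrays themselves lay 0.54 apart, and the difference of 0.43 (SE 0.23, limma adjusted p = 0.361) was smaller than that gap. It was 0.17 without WT replicate 1 and 0.70 without WT replicate 2. RAD52, which anneals single strands, stood at 5.10 and 5.66 in ORC1B14, 5.57 and 5.87 in ORC1BP32, 5.47 and 5.64 in ORC2B2 and 5.85 and 5.90 in ORC2BP8, against 5.76 and 6.14 in WT. RAD52 was the recombination gene farthest below WT, by -0.57 in ORC1B14 and -0.32 over the 4 lines (SE 0.19, limma adjusted p = 0.415 for the 4 lines), and 5 of 8 mutant arrays lay below both WT arrays. The RAD52 difference over the 4 lines was -0.51 without WT replicate 1 and -0.13 without WT replicate 2, and that in ORC1B14 was -0.85 without ORC1B14 replicate 2 and -0.29 without ORC1B14 replicate 1.

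**Figure D2:**
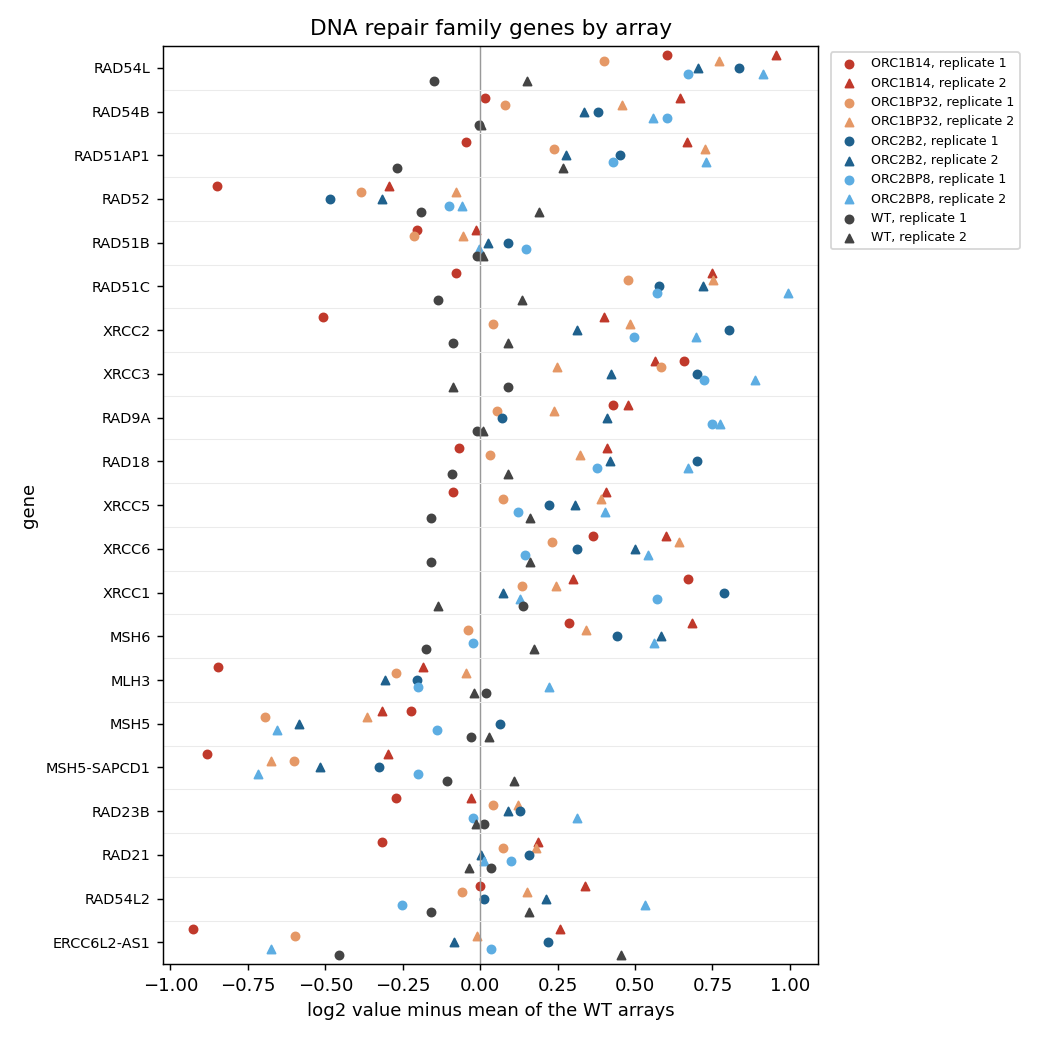
Log2 value minus the mean of the WT arrays for the 21 tested members, ordered by role from recombination at the top to other genes at the bottom. Each line has its own colour, circles are replicate 1 and triangles replicate 2. The points of RAD54L, XRCC3, RAD9A and RAD54B for mutant lines all lie right of both WT points, and those of MSH5-SAPCD1 all lie left of them.

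Across the tested members, 4 had all 8 mutant arrays above both WT arrays (RAD54L, RAD54B, XRCC3 and RAD9A), against 7.96% of all genes. Only MSH5-SAPCD1 had all 8 below, against 6.93% of all genes. Genes on an array are not independent of each other, and all comparisons with WT share the same 2 WT arrays.

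RAD9A and RAD18 act when forks meet damage. RAD9A encodes a subunit of the ring-shaped checkpoint clamp that helps activate ATR. It stood at 6.94 and 6.99 in ORC1B14, 6.56 and 6.75 in ORC1BP32, 6.58 and 6.92 in ORC2B2 and 7.26 and 7.28 in ORC2BP8, against 6.50 and 6.52 in WT. All mutant arrays of RAD9A lay above both WT arrays, with ORC2BP8 the farthest at 0.76 (SE 0.19, limma adjusted p = 0.0997), ORC1B14 at 0.45, ORC2B2 at 0.24 and ORC1BP32 at 0.15. Over the 4 lines the difference of RAD9A was 0.40 (SE 0.15, limma adjusted p = 0.205). RAD18, a ubiquitin ligase that modifies the sliding clamp PCNA at stalled forks, stood at 7.96 and 8.44 in ORC1B14, 8.06 and 8.35 in ORC1BP32, 8.73 and 8.45 in ORC2B2 and 8.40 and 8.70 in ORC2BP8, against 7.93 and 8.12 in WT. For RAD18 the difference was 0.56 in ORC2B2 and 0.52 in ORC2BP8, against 0.17 in ORC1B14 and 0.18 in ORC1BP32 (SE 0.22, limma adjusted p = 0.352, 0.309, 0.741 and 0.853). In ORC1B14 the RAD18 difference was -0.07 without replicate 2 and 0.41 without replicate 1 of that line, and in ORC1BP32 it was 0.03 without replicate 2 of that line.

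The end-joining and strand-break members XRCC6, XRCC5 and XRCC1 stood above WT in the mean of all 4 lines, none with a limma adjusted p under 0.05. XRCC6, the Ku70 subunit, stood at 8.61 and 8.85 in ORC1B14, 8.48 and 8.89 in ORC1BP32, 8.56 and 8.75 in ORC2B2 and 8.39 and 8.79 in ORC2BP8, against 8.09 and 8.41 in WT. In XRCC6 7 of 8 mutant arrays lay above both WT arrays, and the difference over the 4 lines was 0.42 (SE 0.17, 95% interval 0.03 to 0.80, limma adjusted p = 0.254). XRCC5, the Ku80 subunit, stood at 11.27 and 11.76 in ORC1B14, 11.43 and 11.75 in ORC1BP32, 11.58 and 11.67 in ORC2B2 and 11.48 and 11.76 in ORC2BP8, against 11.20 and 11.52 in WT. On every line replicate 2 of XRCC5 and of XRCC6 was the higher array, and for XRCC5 the difference from WT of 0.23 (SE 0.15, limma adjusted p = 0.487) was smaller than the 0.32 between the WT arrays. Without WT replicate 1 the difference was 0.07 for XRCC5 and 0.26 for XRCC6, and without WT replicate 2 it was 0.39 for XRCC5. XRCC1, a scaffold for single-strand break repair, stood at 9.27 and 8.90 in ORC1B14, 8.73 and 8.84 in ORC1BP32, 9.38 and 8.67 in ORC2B2 and 9.17 and 8.73 in ORC2BP8, against 8.73 and 8.46 in WT. In XRCC1 replicate 1 was the higher array in every line except ORC1BP32, and the difference over the 4 lines was 0.36 (SE 0.20, limma adjusted p = 0.394), or 0.23 without WT replicate 2.

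Mismatch repair genes stood on both sides of WT. MSH6, part of a complex that binds base mismatches, stood at 7.49 and 7.89 in ORC1B14, 7.16 and 7.54 in ORC1BP32, 7.64 and 7.78 in ORC2B2 and 7.18 and 7.76 in ORC2BP8, against 7.03 and 7.38 in WT. The difference of MSH6 was 0.35 over the 4 lines (SE 0.20, limma adjusted p = 0.399), with 6 of 8 mutant arrays above both WT arrays and none below both, and it was 0.18 without WT replicate 1 and 0.53 without WT replicate 2. MLH3, a MutL homolog, stood at 5.84 and 6.50 in ORC1B14, 6.41 and 6.64 in ORC1BP32, 6.48 and 6.38 in ORC2B2 and 6.49 and 6.91 in ORC2BP8, against 6.71 and 6.67 in WT. Of its 8 mutant arrays 7 lay below both WT arrays and ORC2BP8 replicate 2 above both, with a difference of -0.23 (SE 0.19, limma adjusted p = 0.592), or -0.15 without ORC1B14 replicate 1.

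MSH5, known for its role with MSH4 in meiotic crossing over, stood at 7.86 and 7.77 in ORC1B14, 7.39 and 7.72 in ORC1BP32, 8.15 and 7.50 in ORC2B2 and 7.94 and 7.43 in ORC2BP8, against 8.05 and 8.11 in WT. Its difference was -0.36 (SE 0.20, limma adjusted p = 0.384), and 7 of 8 mutant arrays lay below both WT arrays. MSH5-SAPCD1, a read-through transcript from MSH5 into its neighbour, stood at 5.30 and 5.88 in ORC1B14, 5.58 and 5.51 in ORC1BP32, 5.86 and 5.67 in ORC2B2 and 5.98 and 5.47 in ORC2BP8, against 6.08 and 6.29 in WT. All 8 arrays of mutant lines lay below both WT arrays, and the difference was -0.61 for the ORC1 lines, -0.44 for the ORC2 lines and -0.53 for all 4 (SE 0.20 and limma adjusted p = 0.201 for all 4). The 2 genes overlap, so their signals cannot be told apart. Of the 5 probe sets named for MSH5-SAPCD1, 4 held identical values on all 10 arrays, so these are no independent measurements, and on those 4 the mean mutant array stood at -0.53 against WT, as on the brightest. The second MSH5 probe set gave -0.44.

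For the remaining members the mutant and WT arrays overlapped. RAD23B, which stabilises the damage sensor XPC in nucleotide excision repair, stood at 10.06 and 10.31 in ORC1B14, 10.38 and 10.46 in ORC1BP32, 10.46 and 10.43 in ORC2B2 and 10.31 and 10.65 in ORC2BP8, against 10.35 and 10.32 in WT. Its difference over the 4 lines was 0.05, with a 95% interval of -0.23 to 0.33 that was the narrowest of the 21. RAD21, a subunit of the cohesin ring that holds sister chromatids together, stood at 6.84 and 7.34 in ORC1B14, 7.23 and 7.34 in ORC1BP32, 7.32 and 7.16 in ORC2B2 and 7.26 and 7.17 in ORC2BP8, against 7.19 and 7.12 in WT. For RAD21 the difference was 0.05 (95% interval -0.31 to 0.41). RAD54L2, a helicase-like relative of RAD54L, stood at 6.97 and 7.31 in ORC1B14, 6.91 and 7.12 in ORC1BP32, 6.98 and 7.18 in ORC2B2 and 6.72 and 7.50 in ORC2BP8, against 6.81 and 7.13 in WT, a difference of 0.12 (95% interval -0.35 to 0.58). ERCC6L2-AS1, an antisense RNA, stood at 3.81 and 4.99 in ORC1B14, 4.14 and 4.72 in ORC1BP32, 4.95 and 4.65 in ORC2B2 and 4.77 and 4.06 in ORC2BP8, against 4.28 and 5.19 in WT. The WT arrays of ERCC6L2-AS1 lay 0.91 apart and enclosed 5 of the 8 mutant arrays, and its difference of -0.22 had the widest interval of the set, -0.95 to 0.50. It was -0.68 without WT replicate 1 and 0.23 without WT replicate 2. On the second ERCC6L2-AS1 probe set the mean mutant array stood at -0.04 against WT.

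**Figure D3:**
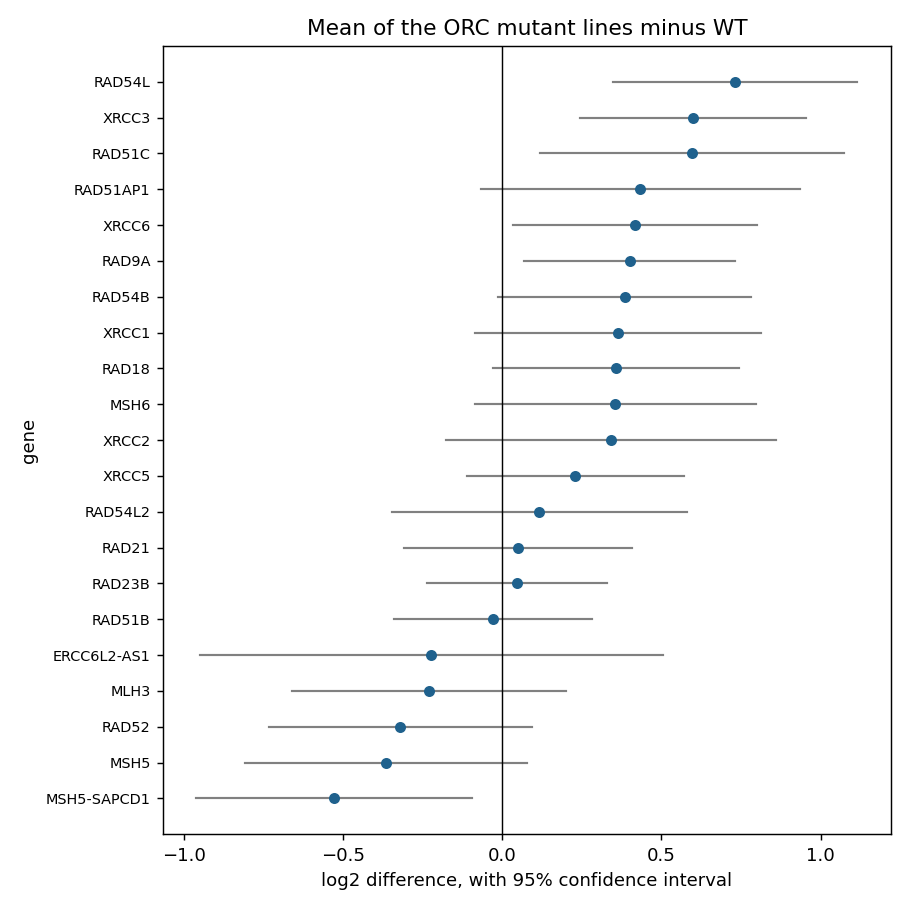
Log2 difference of the mean of the mutant lines from WT for the 21 tested members, ordered by size, with the 95% confidence interval from limma as a horizontal line. RAD54L is highest at 0.73 and MSH5-SAPCD1 lowest at -0.53, and 15 members lie above 0 and 6 below.

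In the mean of all 4 lines, 15 of 21 members lay above 0, with a median of 0.34, while 55.4% of all genes lay above 0, with a median of 0.04. The members' median was 0.17 for ORC1B14, 0.15 for ORC1BP32, 0.26 for ORC2B2 and 0.27 for ORC2BP8, beside 0.04, 0.04, 0.03 and 0.03 for all genes. These medians moved with single arrays, and only that of ORC1B14 changed sign. For ORC1B14 the median was -0.08, with 7 members above 0 and 14 below, without ORC1B14 replicate 2, and 0.40 without ORC1B14 replicate 1. For ORC1BP32 it lay between 0.04 without ORC1BP32 replicate 2 and 0.24 without ORC1BP32 replicate 1. For ORC2B2 it lay between 0.12 without WT replicate 1 and 0.36 without WT replicate 2, and for ORC2BP8 between 0.14 without ORC2BP8 replicate 2 and 0.53 without ORC2BP8 replicate 1. Without WT replicate 1 the median over the 4 lines was 0.17, and without ORC1B14 replicate 2 it was 0.23. ORC2BP8 was the line with the highest mean in 10 of the 21 members, against 21.3% of all genes, and WT in 3, against 23.9%. The lowest mean was that of ORC1B14 in 6 members, against 22.0% of all genes, of ORC1BP32 in 3, against 13.2%, and of WT in 12, against 31.7%. ORC2B2 and ORC2BP8 were lowest in 0 members, against 15.8% of all genes for ORC2B2 and 17.3% for ORC2BP8.

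The ORC1 lines were then compared with the ORC2 lines. The differences in this comparison use no WT array, while their errors and p-values come from the fit to all 10 arrays. In 20 of 21 members the ORC1 lines had the lower mean, XRCC6 being the exception at 0.08, and the median difference was -0.16. Among all genes 49.5% lay below 0, with a median of 0.00. By limma 0 members had an adjusted p under 0.05 and 2 had an unadjusted p under 0.05, or 9.52% against 6.96% of all genes. These were XRCC2 at -0.47 (95% interval -0.94 to -0.01, limma adjusted p = 0.699) and RAD18 at -0.37 (95% interval -0.71 to -0.02, limma adjusted p = 0.678). Both moved with single arrays. Without ORC1B14 replicate 1 the difference was -0.25 for XRCC2 and -0.25 for RAD18. Without ORC1B14 replicate 2 it was -0.70 for XRCC2 and -0.49 for RAD18. The count of 20 rested in part on single arrays. Without ORC1B14 replicate 1 it was 14, with a median of -0.03, and without ORC1BP32 replicate 1 it was 15, with a median of -0.08. Without any other array it lay between 17 and 21. That ORC1B14 array held the lowest value of all 10 arrays for 7 members (ERCC6L2-AS1, MLH3, MSH5-SAPCD1, RAD21, RAD23B, RAD52 and XRCC2), against 19.6% of all genes. WT replicate 1 held the lowest value for 9 others, against 16.5% of all genes. Only RAD51B had all 4 ORC1 arrays below all 4 ORC2 arrays, against 1.25% of all genes, and its highest ORC1 value, 4.77, lay 0.01 under its lowest ORC2 value, 4.78.

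**Figure D4:**
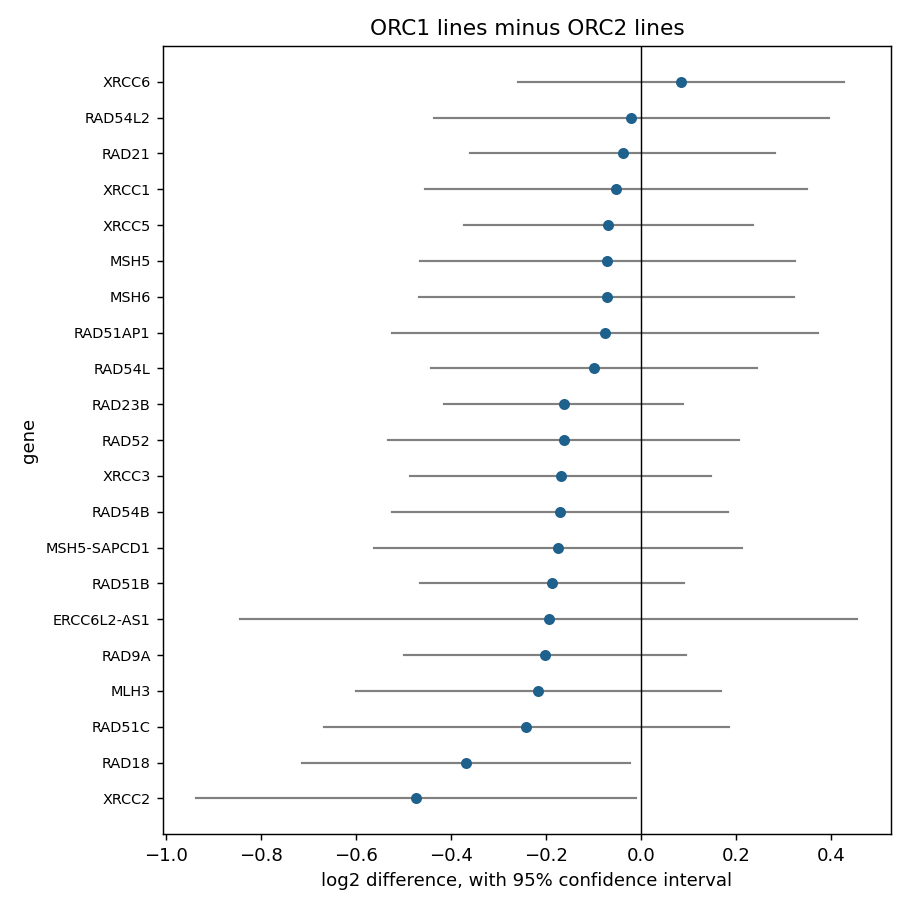
Log2 difference of the ORC1 lines minus the ORC2 lines for the 21 tested members, ordered by size, with the 95% confidence interval from limma as a horizontal line. All points but XRCC6 lie left of 0, and the intervals of XRCC2 and RAD18 alone do not reach 0.

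Arrays of a line differed from each other by amounts close to these differences. Replicate 2 was the higher array for 18 of 21 members in ORC1B14, 19 in ORC1BP32, 7 in ORC2B2, 14 in ORC2BP8 and 16 in WT. Among all genes the share was 56.2% in ORC1B14, 55.0% in ORC1BP32, 55.3% in ORC2B2, 53.6% in ORC2BP8 and 58.5% in WT. In 7 members (RAD51C, RAD52, RAD54L2, RAD9A, MSH6, XRCC5 and XRCC6) replicate 2 was higher in all 5 lines, against 16.04% of all genes. The median of the 21 values per array lay at 7.17 and 7.52 in ORC1B14, 7.16 and 7.34 in ORC1BP32, 7.40 and 7.27 in ORC2B2 and 7.26 and 7.48 in ORC2BP8, against 7.03 and 7.13 in WT, so the WT arrays had the lowest medians of the 10.

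Other genes of these pathways were taken from lists of known repair genes. Of 110 listed genes outside chromosomes 5 and 16, 64 were named and tested. In the mean of all 4 lines 1 of 64 was called by limma, against 1.02% of all genes. At an unadjusted limma p under 0.05 there were 19 (16 higher and 3 lower), against 17.3% of all genes, and the median of the 64 was 0.19. The called gene was RECQL4, a RecQ helicase that acts in replication and recombination, which rose by 0.87 (SE 0.16, adjusted p = 0.0366). RECQL4 lost its call without 8 of the 10 arrays taken singly, all but ORC1B14 replicate 2 and ORC2BP8 replicate 1, with a highest adjusted p of 0.290. For 27 genes of homologous recombination and break signalling the median was 0.29 with 21 above 0. For 9 partners of crosslink repair it was 0.32 with 7 above 0, and for 14 base excision repair genes 0.18 with 12 above 0. Among all genes 55.4% lay above 0, with a median of 0.04. The 4 end-joining genes had a median of -0.21 and the 2 mismatch repair genes one of -0.38, with 0 above 0 in both lists, while the end-joining members XRCC5 and XRCC6 lay above 0. The single nucleotide excision repair gene stood at -0.19 and the 7 genes of translesion synthesis and direct reversal at a median of -0.01.

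Genes of DNA synthesis and proliferation also stood above WT. Unlike the repair lists, this list was not filtered by chromosome. All 20 listed genes lay above 0 in the mean of the 4 lines, against 55.4% of all genes. Their median was 0.75, against 0.04 for all genes. By limma 6 rose, MCM2, MCM4, CDC6, CCNE2, E2F1 and TYMS, by 0.85 to 1.09 (highest adjusted p 0.0476). Among all genes 1.02% were called in either direction. MCM4 and CDC6 lost their calls without WT replicate 1 or without WT replicate 2, and the other 4 without between 7 and 9 of the 10 arrays (highest adjusted p 0.379). The part of cell proliferation in the repair gene values was not tested.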

How the data were processed

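Total RNA from 10 HCT116 samples was extracted with Trizol and labelled for Affymetrix arrays, per the labels' protocols. The authors deposited 1 log2 value per probe set and array for 53617 probe sets. Affymetrix Expression Console was used, per the submitters' processing notes, which list no version. The normalization and the build are not given in the sources that were used here. The log base was read from the range of values, 1.45 to 13.71. No 2 arrays were identical (0 pairs).

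A platform annotation named 16098 probe sets with 1 symbol each and 0 with several, all of which matched RefSeq genes of GRCh38.p14 by ID, and 37519 probe sets stayed unnamed here. Named probe sets that reached an array's median over its whole content on 2 or more arrays were kept (11554), and the brightest stood for each gene (10797 genes). RefSeq served for names, chromosomes and promoters.

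limma 3.58.1 in R 4.3.3 fitted 5 line means to all 10 arrays, with eBayes and an intensity trend (5 residual and 5.83 prior degrees of freedom). Tests were two-sided, with Benjamini-Hochberg adjustment over all genes and a threshold of 0.05. The fit was also run on simulated arrays with independent noise and no replicate effect, which cannot show whether it suits these arrays. Confidence intervals (95%) use the moderated error. Arrays give no read depth, and their number limits the precision. By the rule for named genes, members were taken by smallest p in the mean of all 4 lines until 20 were reached, and XRCC5, XRCC6 and MSH6 were always included. Members, lists and tests were chosen with earlier results of these data known. Alternatives were 2 other normalizations, 2 other filters, mean probe sets, no intensity trend, the replicate number as a block and each array left out.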

Additional observations from a re-analysis of the deposited data

Results flagged for a closer look

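RAD23B and RAD51B stood on opposite sides of WT in different mutant lines, with both arrays of 1 line above and both arrays of another below both WT arrays. For RAD23B the line means differed by 0.23 between ORC1BP32 and ORC1B14 and by 0.26 between ORC2B2 and ORC1B14. For RAD51B they differed by 0.16 between ORC2B2 and ORC1B14 and by 0.19 between ORC2B2 and ORC1BP32. These differences between lines were not tested. For both genes the WT arrays lay only 0.02 apart. For RAD51B, ORC1B14 replicate 2 at 4.773 lay barely below WT replicate 1 at 4.775. Such a pattern between any mutant lines was found in 673 of 10797 genes, or 6.23%.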

How the results depend on the processing

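By limma, 0 members were called in each of the 8 comparisons without each of the 10 arrays, after median centring, with no filter or a stricter one, with mean probe sets and without the intensity trend. After quantile normalization 1 member, RAD54L, was called in the mean of the ORC2 lines and 1, RAD54L, in the mean of all 4 lines (limma adjusted p = 0.0448 and 0.0402), where 1.74% and 2.13% of all genes were called. With the replicate number as a block, 1 member was called in ORC1B14 (4.59% of all genes), 0 in ORC1BP32 (0.528%), 1 in ORC2B2 (2.32%), 4 in ORC2BP8 (3.72%), 1 in the mean of the ORC1 lines (4.2%), 3 in the mean of the ORC2 lines (5.28%), 3 in the mean of all 4 lines (6.57%) and 0 between ORC1 and ORC2 lines (0.537%). They were RAD54L in each of these but ORC1BP32 and the comparison of ORC1 with ORC2 lines, with XRCC3 and RAD51C in ORC2BP8 and both means that hold it, and RAD9A in ORC2BP8. In the mean of all 4 lines the blocked adjusted p was 0.0170 for RAD54L, 0.0354 for XRCC3 and 0.0392 for RAD51C. The labels do not say that a number marks a shared culture or day. Deviations from the line means correlated between arrays of the same number at 0.0812 to 0.568, over 0.1 in 9 of 10 pairs of lines, which missed the rule of every pair set for taking the numbers as pairs. These are correlations of deviations, which mirror each other in the 2 arrays of a line, and not of the arrays themselves. They are a hint from the data and not from the design.

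The members' median in the mean of all 4 lines lay at 0.17 to 0.39 when single arrays were left out and was lowest without WT replicate 1. The count of members above 0 in that comparison lay at 14 to 16, and that of members below 0 between ORC1 and ORC2 lines at 14 to 21, both counted over the left-out arrays after the data were seen. Over the left-out arrays the difference in the mean of all 4 lines moved by over 1.5 times for 12 of 21 members, and 3 changed sign. These were ERCC6L2-AS1 (-0.68 to 0.23, above 0 without WT replicate 2), RAD54L2 (-0.041 to 0.27, below 0 without WT replicate 1) and RAD21 (-0.013 to 0.11, below 0 without ORC1B14 replicate 2), and the cause was not tested. With 2 arrays a line, 95% intervals for a single line reached at least 0.36 to either side of the difference.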
